A study of Mus musculus with 6 samples.

Results

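The comparison set 2 pools of NIH-3T3 fibroblasts against each other that had been edited at the same gene with different guide RNAs, PC sg5 and PC sg2. It used 4 of the 6 libraries of the series, 2 for each guide, and asked which genes followed the difference in remaining Pcx RNA between the guides and which did not. The libraries were chosen by their labels alone, and 16526 of the 16540 genes in the table were tested, those with at least 10 normalised counts in at least 2 of the 6 libraries. NIH-3T3 is an established mouse embryonic fibroblast line (NIH/Swiss strain). Cells of every group were infected with lentivirus for Cas9 and a guide, selected with 2 ug/mL puromycin and then kept for 48 h in DMEM with 0.2 mM L-glutamine and 10% dialyzed FBS, so low glutamine was common to all groups. The control group of 2 libraries carried R26 sg1, a guide named for the ROSA26 locus that is widely used as a harmless site, and served here as a reference only. The pools were polyclonal, so each library averaged cells with different edits and possibly unedited cells, and fewer cells with Pcx RNA cannot be told apart from less Pcx RNA per cell. Nothing in the labels tells whether replicate libraries were grown separately, and the p-values below therefore reflect a spread between libraries that may be technical.

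Pyruvate carboxylase, the product of Pcx, is a biotin-dependent enzyme of the mitochondrial matrix that adds carboxyl groups to pyruvate and makes oxaloacetate. This reaction refills the tricarboxylic acid (TCA) cycle when its intermediates are drawn off, for example as aspartate, or as glutamate, from which proline is made. Glutamine is the other main source of such carbon in cultured fibroblasts. Collagen, the main secreted product of fibroblasts, is rich in proline and glycine.

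Between 22895172 and 71710049 reads in genes lay behind each library, and the second PC sg5 library was the shallowest, with 64 genes at 0 against 7 to 14 in the other 5. A count of 3 reads, the upper limit that a count of 0 allows (counting error only), corresponded to 6.41 normalised counts in that library and to 2.18 to 3.19 in the others. Libraries of a group differed by more than sampling noise, with a chi-square per degree of freedom of 3.08 for PC sg5 and 4.01 for PC sg2. Of 14 fibroblast markers, 13 were measured, and their summed level was 567986 to 584554 normalised counts in PC sg2 and 560289 to 566259 in PC sg5, against 1332650 to 1383420 in control. Adipoq, Myod1, Epcam, Ptprc and Cdh5, markers of adipocytes, muscle, epithelium, leukocytes and endothelium, were not among the genes analysed here. Other markers of each of these cell types were measured. In control they summed to 3867 to 4007 normalised counts for adipocytes, 1919 to 2009 for leukocytes and macrophages and 490 to 509 for endothelium. For muscle the sums were 105 to 133 and for epithelium 57.4 to 58.7.

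Pcx RNA was reduced by both guides, and less so by PC sg5 (GRCm38 chromosome 19, 4510472 to 4621752, plus strand). The control libraries held 2914 and 3015 normalised counts, the PC sg2 libraries 316 and 375, and the PC sg5 libraries 713 and 716. The 3 groups did not overlap, and PC sg2 kept 11.7% and PC sg5 24.1% of the control mean. PC sg5 was 2.07-fold above PC sg2, a difference of 1.05 ± 0.083 on the log2(normalised count + 1) scale (SE, 95% interval 0.88 to 1.22; limma, Benjamini-Hochberg adjusted p = 6.6e-07). All fold changes below are on this scale, with n = 2 libraries for each group. RNA says nothing of how much working enzyme each pool kept.

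Genes beside Pcx on the chromosome did not pass the threshold between the guides. Kdm2a, Rhod, A930001C03Rik, Syt12, Rce1 and Gm960, which flank it, and Lrfn4, which lies within its span on the other strand, had adjusted p-values (limma) of at least 0.547 for PC sg5 against PC sg2. Lrfn4 held 4740.5 and 4682 normalised counts in PC sg2 and 4541 and 4705 in PC sg5, and Rce1, the nearest gene downstream, 1299 and 1325 in PC sg2 and 1213 and 1208 in PC sg5. The transcript at the control guide's locus, Gt(ROSA)26Sor, held 576 and 603 in control, 573 and 618 in PC sg2 and 572 and 603 in PC sg5, and its groups overlapped.

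Few genes separated the guides. By limma with an adjusted p under 0.05, 40 genes differed between PC sg5 and PC sg2, which is 0.242% of the genes tested; 23 were higher in PC sg5 (0.139%) and 17 lower (0.103%). This balance was not stable: the calls were 11 higher and 23 lower with only the 4 PC libraries fitted, 34 and 57 with DESeq2, 91 and 127 without the first PC sg5 library, 3 and 7 without the second PC sg2 library, and 10 and 16 without either control library. By the same test 10658 genes differed between PC sg2 and control (64.5%) and 10653 between PC sg5 and control (64.5%); both of these counts rest on the same control libraries. An unadjusted p under 0.05 was reached by 1760 genes between the guides (10.6%), and edgeR's quasi-likelihood test on the whole reads recovered from the table called 68 genes (0.411%). The difference in Pcx was the largest of any called gene that averaged at least 50 normalised counts over the PC libraries, and the others of that level differed by 0.12 to 0.56 in size. Only Gm11655 and Scn9a exceeded it, each near the detection limit. Exons of other genes cover 0% of the exonic bases of Gm11655, which is annotated as antisense. Without strand, reads from introns of a partner gene could still not be told apart from its own. Gm11655 held 0 and 1.06 normalised counts in PC sg2 and 16.2 and 23.5 in PC sg5. Scn9a, a voltage-gated sodium channel gene, held 3.12 and 7.44 in PC sg2 and 24.3 and 34.2 in PC sg5. These names, and those of Igfbp4, Hspe1, S100a6, Rps15, Gm26917, Man2a1, Rai1 and Cyp1b1 below, were chosen after their values were seen. The number called moved with the libraries used: it was 14 without the first and 10 without the second PC sg2 library, 218 without the first PC sg5 library, 42 without the second, and 26 without either control library. Without limma's intensity trend no gene was called, Pcx included (adjusted p = 0.328), while 1241 genes had an unadjusted p under 0.05. In all 40 called genes both PC sg5 libraries lay on the same side of both PC sg2 libraries. Leaving out a library therefore could not change a sign. The fits without the first and without the second control library agreed for all 40 genes, so they are in effect the same check of the guides. Every one of the 40 kept its sign in the 6 fits without a library, and Pcx, S100a4 and Nup107 alone kept the call in all 6. Of the other 37, 5 kept it in 5 fits, 8 in 4, 9 in 3, 3 in 2, 11 in 1 and 1 in none.

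**Figure D1:**
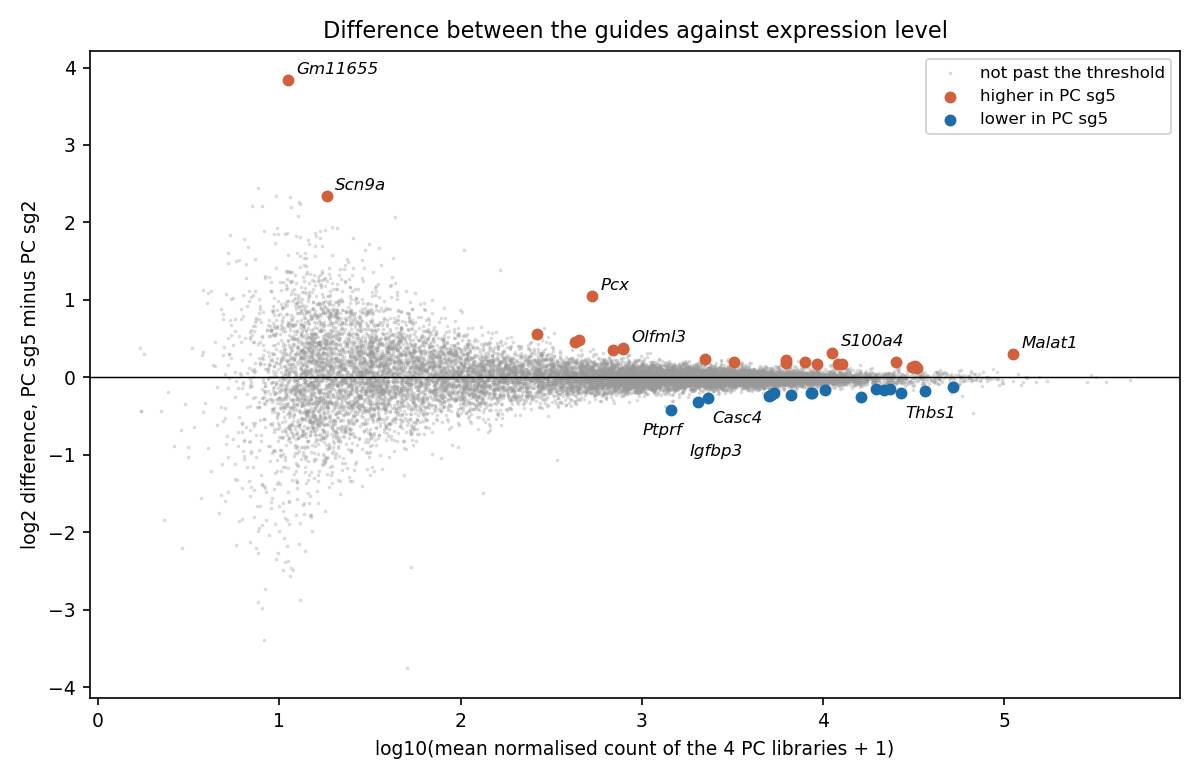
Each point is a gene, with its mean normalised count over the 4 PC libraries (log10 axis) against its log2 difference between PC sg5 and PC sg2; the 23 genes called higher in PC sg5 are orange and the 17 called lower blue. Pcx lies at 1.05, apart from the narrow band of genes of its level, and the 2 points above it, Gm11655 and Scn9a, have few counts.

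The called genes were then placed by where PC sg5 lay between or outside the other groups. Pcx itself was graded, with PC sg5 between control and PC sg2. Of the 40, 25 were graded in this way (62.5%), 10 went farther from control in PC sg5 than in PC sg2, and 5 had the guides on opposite sides of control; over all genes tested, called or not, the shares were 48.7%, 42.9% and 8.40%. Of the graded genes 19 were below control and 6 above it. Among called genes that both guides changed at least 2-fold against control, 13 were graded and all 13 were below control, while 1, Thbs1, went farther in PC sg5. These counts moved with the total when a library was left out: graded genes numbered 11 without the first and 4 without the second PC sg2 library, 101 without the first and 15 without the second PC sg5 library, and 13 without either control library. The genes that went farther in PC sg5 numbered 1, 4, 75 and 18 without those 4 PC libraries in the same order, and those on opposite sides 2, 2, 42 and 9, and 3 without either control library.

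**Figure D2:**
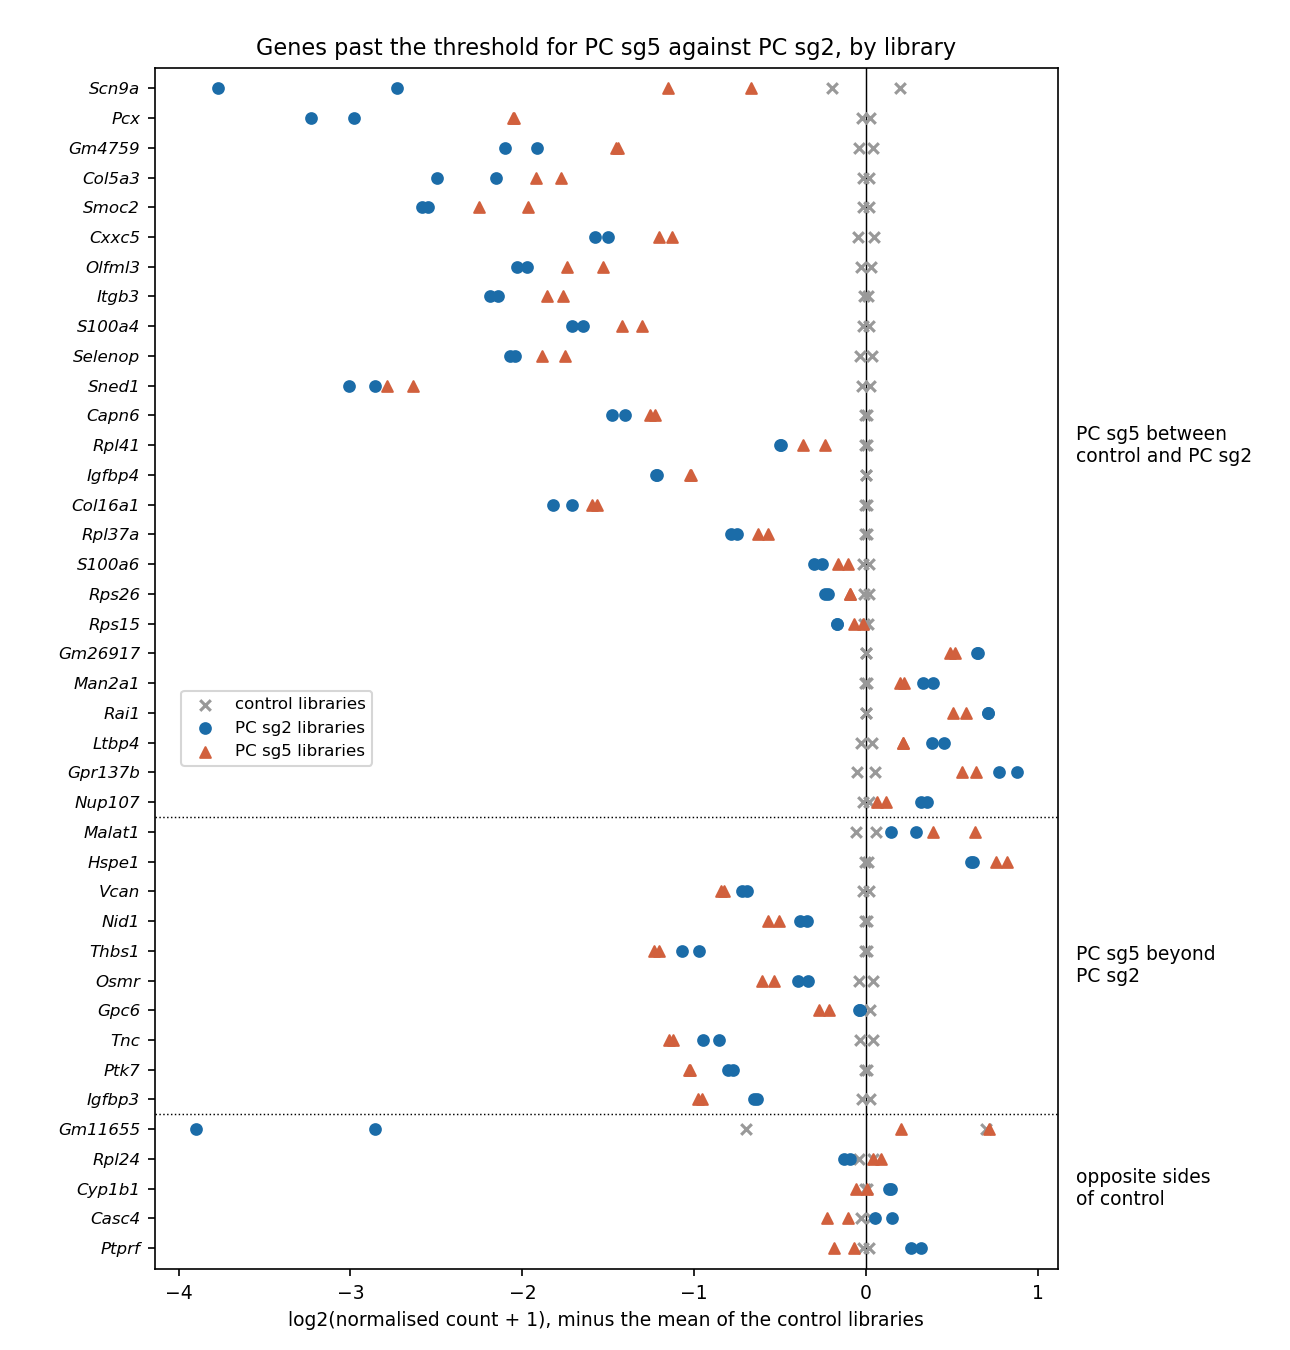
Each row is 1 of the 40 called genes and each symbol a library, placed by its log2(normalised count + 1) minus the mean of the control libraries; crosses are control, circles PC sg2 and triangles PC sg5. In every row the circles and triangles do not overlap, and in most graded rows the gap between them is small beside their distance from control.

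The 13 graded genes below control that both guides lowered at least 2-fold were Pcx, the pseudogene Gm4759 and 11 others. Col5a3 encodes a minor chain of type V collagen. It held 1891 and 1851 normalised counts in control, 419 and 331 in PC sg2 and 493 and 545 in PC sg5, a difference between the guides of 0.48 ± 0.10 (limma, adjusted p = 0.0467). Col16a1, a collagen of the FACIT group that sits on the surface of other fibrils, held 19915 and 19745 in control, 6058 and 5605 in PC sg2 and 6558 and 6703 in PC sg5. Its difference was 0.19 ± 0.037 (adjusted p = 0.0337). For both collagens the PC sg5 libraries were above the PC sg2 libraries and far below control.

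Smoc2, a secreted calcium-binding protein of the SPARC family, held 2168 and 2112 in control, 365 and 356 in PC sg2 and 448 and 547 in PC sg5. Olfml3, a secreted olfactomedin-domain glycoprotein, held 2819 and 2716 in control, 703 and 676 in PC sg2 and 829 and 958 in PC sg5. Sned1, a large matrix glycoprotein, held 43100.0 and 44500.2 in control, 6033 and 5430.4 in PC sg2 and 6338 and 7035 in PC sg5. Their differences between the guides were 0.46, 0.37 and 0.22, and in each the libraries of the guides did not overlap. Itgb3, the integrin β3 subunit that binds vitronectin and fibronectin, held 2699.7 and 2739 in control, 596 and 614 in PC sg2 and 800.2 and 750.3 in PC sg5 (difference 0.36 ± 0.069, limma adjusted p = 0.0288).

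S100a4, a small calcium-binding protein also known as fibroblast-specific protein, had the smallest adjusted p after Pcx. It held 31637 and 32502 normalised counts in control, 10241 and 9790.3 in PC sg2 and 13012 and 11964 in PC sg5, a difference of 0.32 ± 0.036 (95% interval 0.24 to 0.39, limma adjusted p = 0.000156). Exons of other genes cover 51.7% of its exonic bases in the annotation, and reads there cannot be assigned with certainty. Its chromosomal neighbour of the same family, S100a6, was lowered far less by either guide, with 36407 and 37405 in control, 29965 and 30951 in PC sg2 and 34250.0 and 32943 in PC sg5. Igfbp4, which binds insulin-like growth factors, had close pairs of libraries, with 17176 and 17213 in control, 7377 and 7392 in PC sg2 and 8478 and 8447 in PC sg5, with a difference of 0.20 ± 0.031 (adjusted p = 0.00525).

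Selenop, a secreted carrier of selenium, kept 24.0% of the control mean in PC sg2 and 28.3% in PC sg5. Cxxc5, a zinc-finger nuclear protein that acts in Wnt signalling, kept 34.4% and 44.5%, and Capn6, a calpain-like protein without the protease's active site, 36.8% and 42.2%. Gm4759, an unprocessed pseudogene whose reads may be shared with its relatives, kept 24.8% and 36.5%. In none of these 4 did the guides' libraries overlap. Capn6 lost its call in each of the 6 fits without a library, and Selenop, Cxxc5 and Gm4759, like Itgb3, Olfml3, Smoc2 and the low-count Scn9a and Gm11655, kept it in 1 of the 6. Col5a3, Col16a1 and Sned1 kept it in 2, and Igfbp4 in 4.

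Promoter sequence is shown for 3 protein-coding genes of this graded group, Pcx aside. They had the smallest p between the guides among those whose promoter could be printed. The group was chosen for lying below control in both pools, so that shared direction is no result, and shared regulation was not tested. Each line gives the 250 bases before the start in RefSeq (GRCm38.p6, plus strand), with matches to any of 5 motifs in capitals:
S100a4, chr3:90603520-90603769: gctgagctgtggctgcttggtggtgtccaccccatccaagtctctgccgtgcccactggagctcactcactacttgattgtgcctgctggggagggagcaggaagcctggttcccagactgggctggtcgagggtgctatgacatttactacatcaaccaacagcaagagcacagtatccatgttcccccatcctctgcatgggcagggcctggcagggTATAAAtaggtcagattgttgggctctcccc
Igfbp4, chr11:99040994-99041243: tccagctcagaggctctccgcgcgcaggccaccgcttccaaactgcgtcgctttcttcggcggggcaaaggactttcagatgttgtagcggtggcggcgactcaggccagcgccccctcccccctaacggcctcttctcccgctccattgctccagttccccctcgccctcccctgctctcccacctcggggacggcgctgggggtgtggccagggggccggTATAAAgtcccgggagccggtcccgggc
Col16a1, chr4:130047590-130047839: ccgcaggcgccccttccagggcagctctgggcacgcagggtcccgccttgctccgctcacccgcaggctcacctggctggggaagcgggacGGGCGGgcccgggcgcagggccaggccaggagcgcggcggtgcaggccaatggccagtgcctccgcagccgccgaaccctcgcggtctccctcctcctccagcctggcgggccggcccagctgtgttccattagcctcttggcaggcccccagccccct
The motifs were searched on both strands: the GC box GGGCGG, the TATA box TATAAA, the AP-1 motif TGANTCA, the E-box CACGTG and the TEAD motif CATTCC, and each window printed holds 1 match. The capitals mark a TATA box in S100a4 and Igfbp4 and a GC box in Col16a1. Of the 13 genes 9 matched the RefSeq table; 6 of the 9 held a GC box, 3 a TATA box, and 1 each the AP-1, E-box and TEAD motifs. Among the 11057 tested genes in the table the shares were 61.7% for the GC box, 8.10% for the TATA box, 5.69% for AP-1, 9.61% for the E-box and 12.9% for TEAD. A match says only that these letters are in the window, and the TATA box was added after the windows had been read.

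In PC sg5, 5 of 78 tested ribosomal protein genes and the chaperonin gene Hspe1 were called higher than in PC sg2, by small steps at high counts. Over all tested genes, most of them at lower counts, 0.139% were called higher. Rpl41, of the large ribosomal subunit, held 32884 and 33217 in control, 23345 and 23474 in PC sg2 and 28031 and 25676 in PC sg5, a difference of 0.20 ± 0.032 (limma, adjusted p = 0.00706). Rpl37a held 20443 and 20643 in control, 12203 and 11918 in PC sg2 and 13843 and 13278 in PC sg5, Rps26 35195 and 34484 in control, 29873 and 29572 in PC sg2 and 32609 and 32588 in PC sg5, and Rps15 35810.1 and 35136 in control, 31602 and 31562 in PC sg2 and 35012 and 33841 in PC sg5. These 4 were graded below control, and in Rps15 the PC sg5 libraries came close to the control libraries. Rpl24 is described with the genes on opposite sides of control. Ribosomal protein genes have many near-identical processed pseudogenes, so their counts are uncertain to that extent. Hspe1, the mitochondrial co-chaperonin that caps Hsp60, was above control in both pools, with 7394 and 7480.0 in control, 11355 and 11443 in PC sg2 and 13106 and 12569 in PC sg5.

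The 6 graded genes above control were higher in PC sg2 than in PC sg5. Nup107, a scaffold protein of the nuclear pore, held 13652 and 14021 normalised counts in control, 17707 and 17300.1 in PC sg2 and 14995 and 14475 in PC sg5. The difference between the guides was -0.25 ± 0.030 (95% interval -0.31 to -0.19, limma adjusted p = 0.000362), with PC sg5 at 106% and PC sg2 at 127% of the control mean. Ltbp4, which stores latent TGF-beta in the matrix, held 6781 and 7091 in control, 9038 and 9506 in PC sg2 and 8050.4 and 8035 in PC sg5, and Gpr137b, a lysosomal membrane protein, 3264 and 3033 in control, 5778 and 5386 in PC sg2 and 4896 and 4628 in PC sg5. Man2a1, the Golgi α-mannosidase II of N-glycan processing, stood at 128% of control in PC sg2 and 116% in PC sg5. Rai1, a nuclear protein that regulates transcription, stood at 163% and 146%. Gm26917, which is annotated as a long noncoding RNA and has a GC content of 69.1%, stood at 157% and 142%. Which RNA its reads come from was not tested. None of the 6 reached 2-fold above control in either pool, and Rai1 and Gm26917 lost the call when trends with transcript length and GC content were removed (adjusted p = 0.13 in each, limma).

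Of the called genes, 10 ran against the order of Pcx RNA, with PC sg5 farther from control than PC sg2. Of these, 8 were below control, among them 4 of the 51 tested matrix glycoproteins and proteoglycans. Over all tested genes 0.103% were called lower in PC sg5. Thbs1, the matricellular protein thrombospondin-1, held 58943 and 58446 normalised counts in control, 29883 and 27987 in PC sg2 and 24976 and 25436 in PC sg5, a difference of -0.20 ± 0.028 (limma, adjusted p = 0.00333). Tnc, tenascin-C, held 13042 and 13741 in control, 7404 and 6947 in PC sg2 and 6049 and 6152 in PC sg5 (difference -0.23 ± 0.038, adjusted p = 0.00691). Nid1, which links laminin and collagen IV in basement membranes, held 49581 and 49951 in control, 39142 and 38176 in PC sg2 and 35035 and 33539.6 in PC sg5. Vcan, the large proteoglycan versican, held 88186 and 90074 in control, 55103 and 54119 in PC sg2 and 50179 and 49609 in PC sg5. In each of the 4 both PC sg5 libraries were below both PC sg2 libraries, the opposite of Col5a3 and Col16a1. Thbs1, Tnc and Nid1 kept the call in 5 of the 6 fits without a library and Vcan in 3.

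The other 4 below control were Igfbp3, Ptk7, Osmr and Gpc6. Igfbp3, which like Igfbp4 binds insulin-like growth factors, held 3619 and 3496 in control, 2291 and 2264 in PC sg2 and 1804 and 1836 in PC sg5, a difference of -0.32 ± 0.049 (limma, adjusted p = 0.00335). So both guides lowered the pair of binding-protein genes, but Igfbp4 was lower in PC sg2 and Igfbp3 in PC sg5. Ptk7, a catalytically inactive receptor of planar cell polarity signalling, held 9445 and 9518 in control, 5425 and 5534 in PC sg2 and 4653 and 4638 in PC sg5 (difference -0.24 ± 0.035, adjusted p = 0.00335). Osmr, the oncostatin M receptor, held 11482 and 12150.1 in control, 9343 and 8972 in PC sg2 and 7769 and 8137 in PC sg5. Gpc6, the surface proteoglycan glypican-6, held 5828 and 6001 in control, 5759 and 5779 in PC sg2 and 5102 and 4891 in PC sg5, and it differed from control in PC sg5 (limma, adjusted p = 8.51e-06) and not past the threshold in PC sg2 (adjusted p = 0.431).

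Malat1, a nuclear long noncoding RNA, was above control in both pools and higher in PC sg5. It held 82499 and 89297 normalised counts in control, 94871 and 104899 in PC sg2 and 112641 and 133293 in PC sg5, a difference of 0.30 ± 0.052 (limma, adjusted p = 0.0153). The other large nuclear RNAs measured, Neat1 and Kcnq1ot1, were below control and not called between the guides, with Neat1 at 32583 and 31962 in PC sg2 and 34839.7 and 34999.5 in PC sg5. Of the 8 measured histone genes and nuclear RNAs that poly(A) selection can affect, Malat1 alone was called, and the median difference was 0.098 (0.164 without the first and 0.044 without the second PC sg2 library).

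Among the called genes, 5 had the guides on opposite sides of control, and none of them passed the threshold in all 3 contrasts. Ptprf, the receptor-type tyrosine phosphatase LAR, held 1343 and 1374 in control, 1632 and 1698 in PC sg2 and 1294 and 1193 in PC sg5, a difference of -0.42 ± 0.063 (limma, adjusted p = 0.00335). It was above control in PC sg2 (adjusted p = 0.000348), and its lower values in PC sg5 did not pass against control (adjusted p = 0.0801). Casc4, a membrane protein of the Golgi, held 2328 and 2418 in control, 2630.5 and 2457 in PC sg2 and 2207 and 2024 in PC sg5 (difference -0.27 ± 0.055, adjusted p = 0.0454). Cyp1b1, a cytochrome P450 that oxidises steroids and aryl hydrocarbons, held 20825 and 20587 in control, 22928 and 22717 in PC sg2 and 20812 and 19864 in PC sg5. Rpl24 held 9639 and 9135 in control, 8577 and 8792 in PC sg2 and 9948 and 9657 in PC sg5 (difference 0.17 ± 0.035, adjusted p = 0.0382), and exons of other genes cover 47.0% of its exonic bases. The fifth was the low-count Gm11655, with 8.20 and 23.2 in control. Ptprf kept its call in 5 of the 6 fits without a library, and Casc4 in 1.

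The genes that responded to Pcx editing as a whole were next set against the difference in Pcx. The mean of both guides differed from control at least 2-fold and past the threshold for 2944 genes, 1071 higher and 1873 lower. Of these, 16 were called between PC sg5 and PC sg2 (0.543%), 14 of them below control and higher in PC sg5 and 2 below control and lower in PC sg5. The count was 105 without the first PC sg5 library, 9 without the first and 4 without the second PC sg2 library, and 5 and 4 without the first and second control library. Without the second PC sg5 library it was 17, and the balance turned, with 5 of the genes below control higher in PC sg5 and 11 lower. The median difference between the guides was -0.0012 among the genes above control and 0.033 among those below it; without the first PC sg5 library these were 0.030 and 0.020, and without the first PC sg2 library -0.032 and 0.072. For 1882 of the 2944 (63.9%) the 95% interval of the difference lay within 2-fold on either side, and for 1410 (47.9%) within 1.5-fold. The other genes had wider intervals, which these libraries cannot bound more closely. These sets were chosen on contrasts that include the same PC libraries, and their counts describe the libraries.

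If a gene had changed in PC sg5 in the proportion in which Pcx did, its log2 change would have been 0.66 of that in PC sg2. The deviation from that value was tested in the same limma model, with the proportion taken as known. On the log2 scale 1685 of the 2944 genes (57.2%) lay farther from control in PC sg5 than the proportion would place them, 630 above control and 1055 below it, and 3 lay nearer, against 35.8% of all tested genes past the threshold for a deviation in either direction. On the linear scale, where the loss of Pcx RNA in PC sg5 was 85.9% of that in PC sg2, 777 genes (26.4%) lay farther and 3 nearer, against 9.77% of all tested genes. Without the first PC sg2 library the linear count was 494, and without limma's intensity trend it was 4. A gene that responds equally to both guides lies farther than the proportion, by an amount that grows with its change. The 2944 genes were chosen for a large change in the same libraries, so the shares over all tested genes are not a like comparison. This test was added after the values had been seen.

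**Figure D3:**
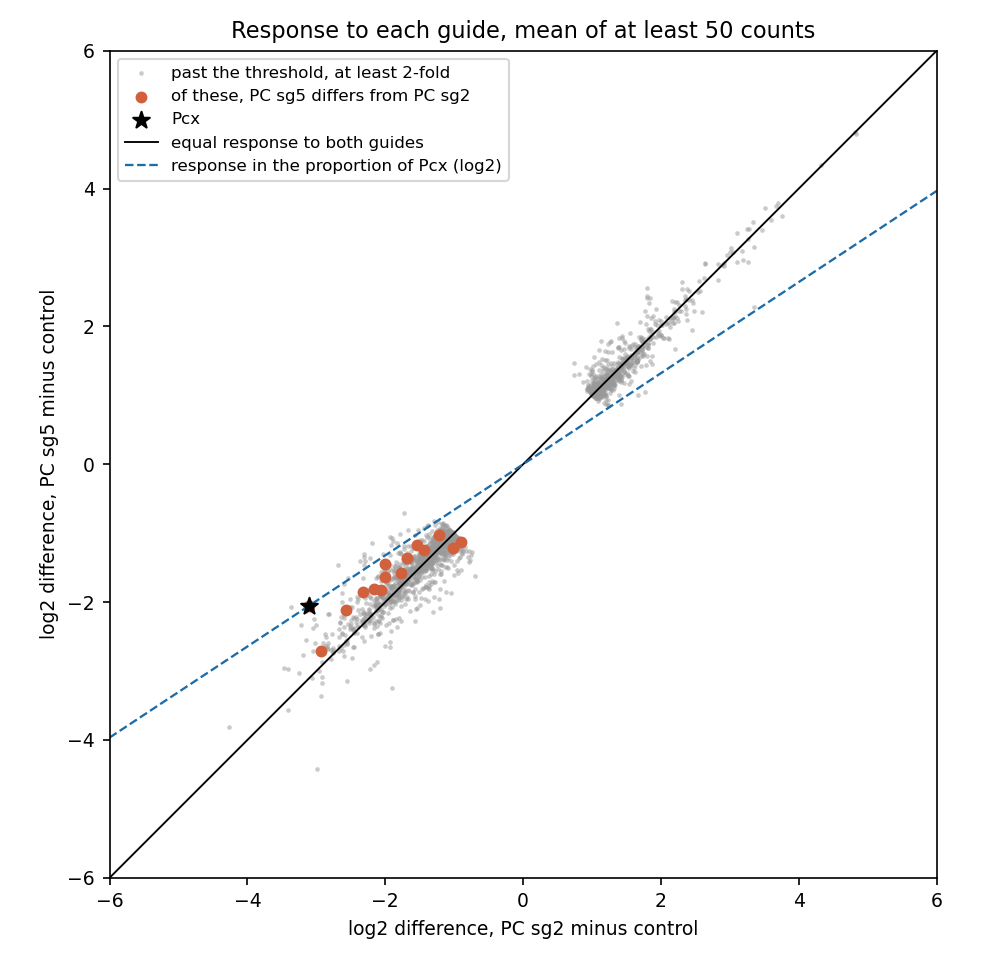
Each grey point is one of 1934 genes that passed the threshold and 2-fold for the mean of both guides against control and averaged at least 50 normalised counts; the horizontal axis is the log2 difference of PC sg2 from control and the vertical axis that of PC sg5. The points follow the solid line of equal response, Pcx (star) lies on the dashed line that its own proportion defines, and the 15 genes of this set called between the guides, Pcx included, are orange and all lie below control.

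The genes named for the study's interest in collagen were among those off the proportion. Col1a1, which encodes the main chain of type I collagen, held 260591 and 278919 normalised counts in control, 95040.2 and 92668 in PC sg2 and 92104 and 92137 in PC sg5, so the pools differed by -0.03 (95% interval -0.08 to 0.03) while both were well below control. Its partner chain Col1a2 held 299592 and 314300.0 in control, 174608 and 174444 in PC sg2 and 167808 and 169962 in PC sg5, and Col3a1, of type III collagen, 208512 and 218773 in control, 78728 and 77485 in PC sg2 and 68483 and 75890.0 in PC sg5. None of the 3 was called between the guides (limma, adjusted p = 0.758, 0.442 and 0.17), and in each both PC sg5 libraries were below both PC sg2 libraries. Acta2, an actin of contractile cells, held 37013 and 37959 in control, 13128 and 12629 in PC sg2 and 13516 and 12866 in PC sg5, with overlapping libraries (difference 0.03, interval -0.03 to 0.10). All 4 lay off the proportion of Pcx on both scales.

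Among genes above control, values of the guides were also close. Ddit3, the stress transcription factor CHOP, held 2122 and 2097 normalised counts in control, 14667 and 15201 in PC sg2 and 15749.7 and 16009.9 in PC sg5 (difference 0.09, 95% interval 0.02 to 0.16). Aars, the alanyl-tRNA synthetase gene, held 23397 and 22492 in control, 55140.4 and 56273 in PC sg2 and 52845 and 52976 in PC sg5, and Hspa5, the endoplasmic reticulum chaperone BiP, 31498 and 33566 in control, 96493 and 98627 in PC sg2 and 90434 and 90831 in PC sg5. None was called between the guides (limma, adjusted p = 0.337, 0.277 and 0.105). On the log2 scale all 3 lay off the proportion of Pcx, and on the linear scale Ddit3 did and Aars and Hspa5 did not.

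Among the genes of pyruvate metabolism no other call accompanied Pcx. Of 33 tested genes of pyruvate use and anaplerosis and 10 of biotin-dependent carboxylases, Pcx alone was called, and the medians of the lists were -0.0017 and -0.044 against -0.0049 over all tested genes; both changed sign when the first PC sg2 library was left out (0.0012 and 0.0064). Acaca, the acetyl-CoA carboxylase of fatty acid synthesis, held 6977 and 6749 normalised counts in PC sg2 and 6828 and 6312 in PC sg5, and Hlcs, which attaches biotin to these enzymes, 919 and 798 in PC sg2 and 838 and 778 in PC sg5. Of 21 TCA cycle genes none was called, and no interval in that list reached beyond 0.27 on either side. Idh1, the cytosolic isocitrate dehydrogenase, had the smallest p of that list, with 12739 and 12806 in control, 3563 and 3094 in PC sg2 and 3767 and 3709 in PC sg5 (limma, adjusted p = 0.171). Slc25a1, the mitochondrial citrate carrier, held 2235 and 1989 in PC sg2 and 2365 and 2276 in PC sg5, and Me1, cytosolic malic enzyme, 4093 and 3910.2 in PC sg2 and 3805 and 3497 in PC sg5.

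Matrix genes were called in both directions. Of 32 collagen chains 2 were called higher in PC sg5, Col5a3 and Col16a1, and none lower, while both PC sg5 libraries were below both PC sg2 libraries for 12 and above for 8. Of 51 matrix glycoproteins and proteoglycans 5 were called lower, Thbs1, Nid1, Tnc, Vcan and Ltbp4, and none higher, and the libraries did not overlap for 18 lower and 7 higher. Over all tested genes 0.139% were called higher in PC sg5 and 0.103% lower. Called genes had a median of 7281 normalised counts over the PC libraries, against 834 for all tested genes. Over all tested genes the libraries were fully apart for 18.4% with PC sg5 above and for 20.8% with PC sg5 below. Of 35 genes of collagen modification and processing none was called, with a median of 0.00018. Of 35 TGF-beta and contractile genes S100a4 alone was called; Actg2, the enteric smooth muscle actin, held 482 and 417 in control, 162 and 183 in PC sg2 and 110.3 and 115 in PC sg5 and did not pass (adjusted p = 0.111).

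Nuclear genes of the respiratory chain and the ribosomal protein genes leaned towards PC sg5. None of the 74 nuclear genes of oxidative phosphorylation was called, but both PC sg5 libraries were above both PC sg2 libraries for 45 of them (60.8%) and below for 2 (2.70%), with a median of 0.064. Ndufb3, of complex I, held 1401 and 1371 in control, 982 and 924 in PC sg2 and 1162 and 1203 in PC sg5 (difference 0.31, limma adjusted p = 0.0516), and Cox7b, of complex IV, 4174 and 4451 in control, 3361 and 3272 in PC sg2 and 3859 and 3741 in PC sg5 (adjusted p = 0.0626). Of 78 ribosomal protein genes the libraries were apart with PC sg5 above for 35 (44.9%) and below for 4 (5.13%), with a median of 0.034. Both medians stayed above 0 under every alternative run, from 0.054 to 0.075 and from 0.011 to 0.054. Of the 12 respiratory chain genes measured that mitochondrial DNA encodes, PC sg5 was above for 2 (16.7%) and below for none. The shares over all tested genes were 18.4% and 20.8%. The median of these 12 was 0.014 (-0.016 without the second PC sg2 library and 0.078 without the second PC sg5 library). The transcripts of the 2 nuclear-encoded lists are short, with a median longest transcript of 1093.5 and 1076.5 bases.

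**Figure D4:**
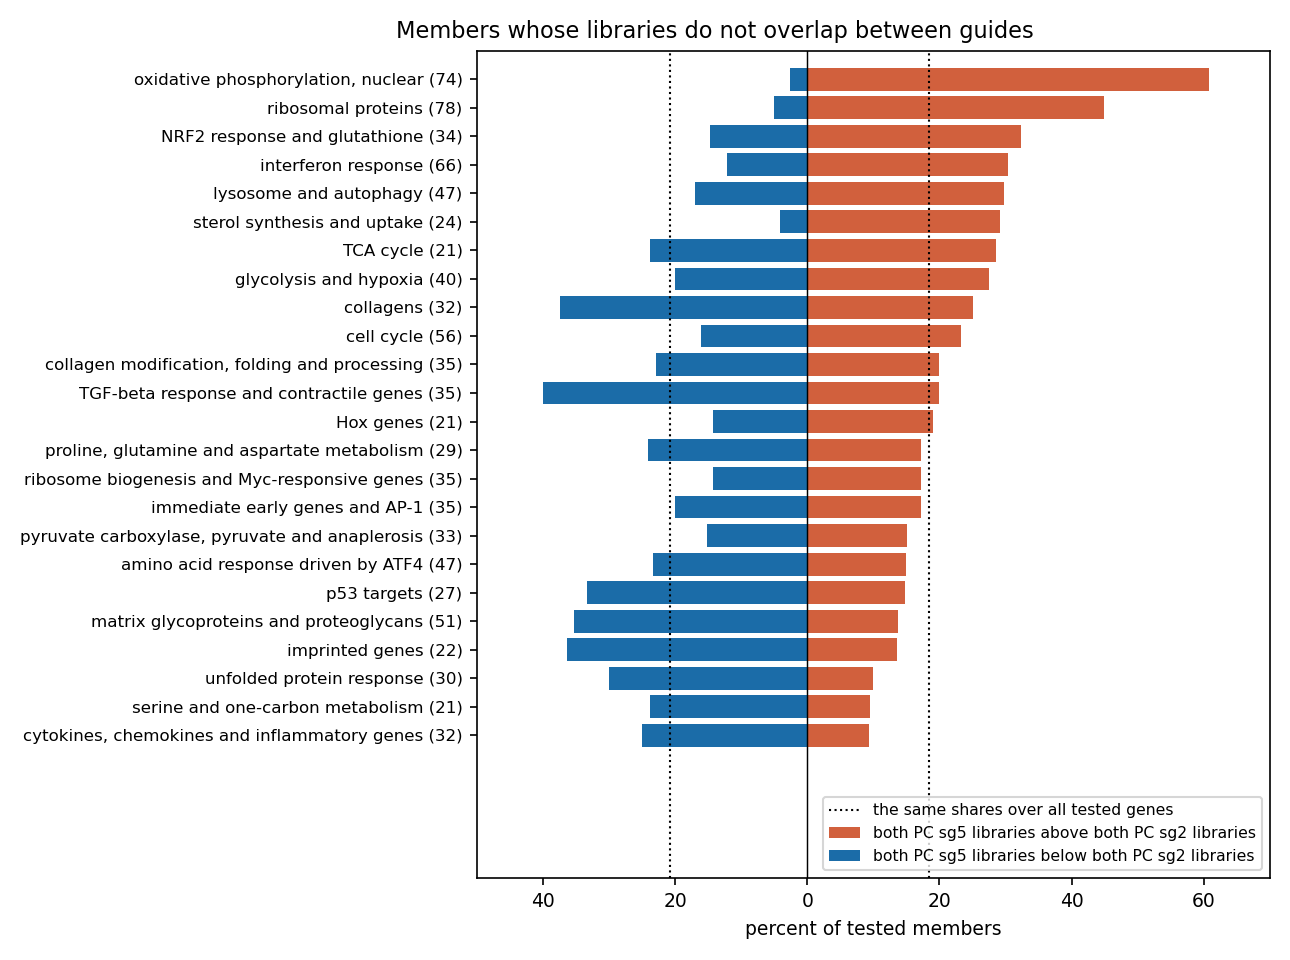
For each of 24 gene lists with at least 20 tested members (number in brackets), orange bars give the percent of members with both PC sg5 libraries above both PC sg2 libraries and blue bars the percent with both below; dotted lines mark the same shares over all tested genes, 18.4% and 20.8%. Nuclear oxidative phosphorylation and ribosomal protein genes reach farthest to the right, at 60.8% and 44.9%.

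Differences between the guides also moved with transcript length. Among the 10648 genes with a known length and a mean of at least 200 normalised counts over the PC libraries, the median difference was 0.022 in the shortest quintile (median 1473 bases) and -0.030 in the longest (median 6926.5 bases). In the longest quintile the first library of a group minus the second was 0.018 in PC sg5, -0.0081 in PC sg2 and -0.019 in control at the median. Genes called higher in PC sg5 had a median longest transcript of 3831 bases and those called lower 5386, against 2972 over all tested genes. When trends with length and GC content were removed, 37 of the 40 genes kept the call, all but Selenop, Rai1 and Gm26917, and the medians of the oxidative phosphorylation and ribosomal protein lists were 0.054 and 0.028.

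No gene of the lists that follow was called between the guides. Sterol synthesis genes, all 24 of which were below control in both pools, had a median difference of 0.066. That median was 0.104 without the first and 0.012 without the second PC sg2 library, and 0.022 without the first PC sg5 library. Both PC sg5 libraries were above for 7 (29.2%) and below for 1 (4.17%), against 18.4% and 20.8% of all tested genes. Of all tested genes, 31.6% passed below control in PC sg2 and 31.8% in PC sg5, and 32.9% and 32.6% passed above. Fdps, which makes farnesyl pyrophosphate, held 6647 and 6783 in control, 1595 and 1577 in PC sg2 and 1792 and 1766 in PC sg5, and Hmgcs1, of the mevalonate pathway, 21204 and 20669 in control, 4942 and 4752 in PC sg2 and 5124 and 5446 in PC sg5 (limma, adjusted p = 0.166 and 0.194). Of 47 genes of the ATF4 amino acid response, 43 were above control in each pool, and the median difference between the pools was -0.012 (-0.023 without the first and 0.0036 without the second PC sg5 library). Of 66 interferon response genes, 63 were below control in PC sg2 and 62 in PC sg5, with a median difference of 0.039 (0.023 without the second PC sg5 library). Single genes of that list went both ways without passing the threshold: Oas2, an antiviral oligoadenylate synthetase, held 229.9 and 238 in PC sg2 and 303 and 355 in PC sg5, and Rsad2, the antiviral enzyme viperin, 146 and 186 in PC sg2 and 127 and 100.5 in PC sg5 (adjusted p = 0.0617 and 0.252). Among 29 members of the proline, glutamine and aspartate list, Slc38a1, a glutamine transporter, came nearest to the threshold, with 4067 and 3909 in control, 10636 and 10852 in PC sg2 and 9761 and 9349 in PC sg5 (adjusted p = 0.0516).

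Imprinted genes had a median of -0.049 over 22 measured members. Both PC sg5 libraries were lower for 8 (36.4%) and higher for 3 (13.6%), against 20.8% and 18.4% of all tested genes. Without the first PC sg5 library that median was -0.0086. Peg10 held 4839 and 5104 normalised counts in PC sg2 and 4218 and 4450.3 in PC sg5, and Igf2 987 and 1023 in PC sg2 and 881 and 891 in PC sg5. The noncoding RNA H19 held 62.3 and 77.6 in PC sg2 and 50.6 and 34.2 in PC sg5. None of Peg10, Igf2 and H19 passed the threshold (limma, adjusted p = 0.0784, 0.273 and 0.302). Exons of other genes cover 64.5% of the exonic bases of Igf2, and reads there cannot be assigned with certainty. Cell cycle genes had a median of 0.0075 over 56 (-0.013 without the first and 0.030 without the second PC sg5 library), and p53 targets -0.024 over 27 (-0.058 without the first PC sg2 library). Part of each list of markers of other cell types was measured. The 4 of 10 chondrocyte and osteoblast markers summed to 7001.7 to 7422.4 normalised counts in PC sg2 and 6743.8 to 6982.1 in PC sg5, the 6 of 10 adipocyte markers to 1526.4 to 1560.7 and 1425.7 to 1463.8, and the 5 of 10 leukocyte and macrophage markers to 1246 to 1323.8 and 1262.5 to 1274. The 3 of 10 muscle markers summed to at most 71.7 and 67.8, and the 1 of 9 epithelial markers to at most 19.1 and 10.1. The 5 of 8 endothelial markers summed to 513.5 to 559.2 in PC sg2 and 586.7 to 690.4 in PC sg5. The sums of the pools did not overlap for this list, with PC sg5 higher. Nor did they for the chondrocyte and osteoblast, adipocyte, epithelial and fibroblast lists, with PC sg5 lower in each. For the muscle list and the leukocyte and macrophage list they overlapped. Vwf, of endothelium and platelets, held 54.4 and 63.8 in control, 181 and 229 in PC sg2 and 252 and 309.9 in PC sg5 and was not called (adjusted p = 0.391), and the part of such cells in any difference above was not tested.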

How the data were processed

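RNA was sequenced from 6 libraries of NIH-3T3 cells; per the labels' protocols, poly-A+ RNA and an NEBNext Ultra kit were used. Tools listed in the submitters' processing notes are bcl2fastq 2.17, Trimmomatic, STAR, featureCounts and DESeq2, with the GRCm38 build, without settings or strand. The table that the authors deposited holds a normalised signal, read counts divided by size factors; 100% of values were whole multiples of the value of 1 read (tolerance 0.01), so whole reads were recovered (22895172 to 71710049 per library).

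Values were tested as log2(normalised count + 1) with limma 3.58.1 (R 4.3.3) on all 6 libraries in 3 groups (3 residual degrees of freedom), with an intensity trend, two-sided, and Benjamini-Hochberg adjustment over 16526 genes (14 removed by the filter; threshold 0.05). edgeR 4.0.16 and DESeq2 1.42.0 on the recovered reads were alternatives. Of 16540 gene IDs, 16491 matched GENCODE M21 symbols. The code was tested on simulated data.

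Text names Pcx, its neighbours, Col1a1, Col1a2, Col3a1, Acta2 and Gt(ROSA)26Sor, the 12 largest differences each way past the threshold at a mean of at least 50 counts, the largest by position, and up to 4 members per list by smallest p. Members and lists were chosen with earlier results of these data known. Guide sequences were not analysed here.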

Additional observations from a re-analysis of the deposited data

Results flagged for a closer look

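In 3 called genes every PC sg2 library lay on one side of both control libraries and every PC sg5 library on the other, so that the effects of the guides against control had opposite signs; the difference between them was tested by PC sg5 against PC sg2. Ptprf differed by -0.42 on the log2 scale (limma, adjusted p = 0.00335), with 1632 and 1698 normalised counts in PC sg2, 1343 and 1374 in control and 1294 and 1193 in PC sg5. Casc4 differed by -0.27 (adjusted p = 0.0454), with 2630.5 and 2457 in PC sg2, 2328 and 2418 in control and 2207 and 2024 in PC sg5. Rpl24 differed by 0.17 in the other direction (adjusted p = 0.0382), with 8577 and 8792 in PC sg2, 9639 and 9135 in control and 9948 and 9657 in PC sg5. Against control alone, Ptprf and Rpl24 passed the threshold in PC sg2 and Casc4 in PC sg5.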

How the results depend on the processing

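Against 40 calls between the guides there were 91 with DESeq2 (of the 40, 21 were among them, 2 were not called and 17 had no adjusted p), 68 with edgeR (39 of the 40 among them), 65 with a mean of at least 50 counts, 65 with a pseudocount of 10, 64 without the 50 most abundant genes, 0 without limma's intensity trend (1241 genes at an unadjusted p under 0.05) and 10 to 218 with a library left out. In the fits that leave 1 library in a group, that library is assumed to vary like the others. Graded genes, 25 of the 40, numbered 59, 44, 43, 44, 42 and 0 under the same settings, and 4 to 101 with a library left out. Genes farther from control in PC sg5, 10 of the 40, numbered 25 with DESeq2, 16 with DESeq2 without independent filtering, 16 with a mean of at least 50 counts, 0 without the trend and 1 to 75 with a library left out. Genes on opposite sides of control, 5 of the 40, numbered 9 with edgeR, 0 without the trend and 2 to 42 with a library left out. Genes off the Pcx proportion on the linear scale fell from 777 to 4 without the trend and ranged from 494 to 749 with a library left out. The Pcx difference lay between 0.93 and 1.18 in every alternative. It missed the threshold without the trend, where it was 1.05 (limma, adjusted p = 0.328). DESeq2 with independent filtering gave Pcx no adjusted p, so its 91 calls do not include Pcx. Without that filtering DESeq2 called 54 genes, with Pcx and 34 of the 40 in all among them. Replicate numbers 1 and 2 are shared by the groups, and deviations of same-numbered libraries correlated at 0.015 to 0.027 over 12921 genes. A correlation over all these genes cannot exclude a pairing that touches only some of them, so whether the numbers pair the libraries is not known. With a replicate block 160 genes were called, 104 graded, 42 farther and 14 opposite. Of the genes at least 2-fold from control in the mean of both guides, 60 were called with that block. The cause of these changes was not tested. None of the 40 genes changed sign in any alternative that fitted it, but for the fits without a library this was fixed in advance, as the guides' libraries did not overlap. The median difference changed sign under at least 1 alternative for 16 of the 35 gene lists, so the sign of a list median near 0 is not settled. The second PC sg5 library, with 22895172 reads, limits what can be seen at low counts.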

Other observations

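Of the genes changed at least 2-fold by both guides together, the few that lay nearer to control in PC sg5 than the proportion of Pcx were at low counts and were chosen after their values were seen. Ckb, the brain-type creatine kinase, held 56.7 and 60.9 normalised counts in control, 14.0 and 12.8 in PC sg2 and 38.4 and 55.6 in PC sg5, so that the second PC sg5 library came close to control. Rmrp and Rpph1, the RNA parts of the RNases MRP and P, which carry no poly(A) tail, were high mainly in the first PC sg2 library. Rmrp held 172 and 19.1 normalised counts in PC sg2, 5.06 and 2.14 in PC sg5 and 0 and 7.25 in control. Rpph1 held 165 and 23.4 in PC sg2, 13.2 and 8.55 in PC sg5 and 5.22 and 14.5 in control. For both, the PC sg2 libraries differed from each other far more than the PC sg5 libraries did.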
